A study of Mus musculus with 10 samples.

Results

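Major urinary proteins (MUPs) are the products of the Mup gene family of the mouse. Here 7 of these genes, Mup1, Mup3, Mup9, Mup16, Mup18, Mup19 and Mup20, were followed across primary mouse hepatocytes exposed to free fatty acids (FFAs) with or without Neurotropin (NTP), a non-protein extract of inflamed rabbit skin. The 7 genes were chosen from the 21 Mup genes listed in at least 1 library, out of 18055 genes in all, with their values over the treatment groups already in view. Their levels and differences between groups are therefore a description without p-values. Where the calls of the fit across all genes are counted for them, the count restates values that were known when the genes were chosen and is no evidence about them. The hepatocytes came from C57BL/6 mice and were divided into 5 groups of 2 libraries each. The Vehicle group received neither FFAs nor NTP. The PA group received 200 µM palmitate, a saturated fatty acid, for 24 h, and the LA group received 12 µM linoleate, a polyunsaturated fatty acid, for 24 h. The PA+NTP and LA+NTP groups were given NTP at 0.4 NU/mL for 1 h ahead of the same fatty acid. No group received NTP alone, and the doses of the fatty acids differed. Sex, age and number of the mice were not given, and it is not stated that the libraries of a group came from separate cultures, so the spread between them may be technical.

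MUPs are small lipocalins, barrel-shaped proteins that hold a volatile ligand in a central pocket. The liver secretes them into the blood, the kidney passes them into the urine, and there they release or present odours used in scent marking. Transcription of most Mup genes in the liver depends on pulses of growth hormone acting through its receptor and STAT5B, with further input from glucocorticoids, thyroid hormone and androgens. Mup20 encodes darcin, the male urinary protein that attracts females, and Mup3 encodes another protein that stands apart from the central group in sequence.

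All 7 genes lie on chromosome 4 and are transcribed from the minus strand. In GRCm38, which is the mm10 build named in the labels, Mup9 is at chr4:60418046-60422085, Mup1 at chr4:60498012-60501960, Mup16 at chr4:61515592-61519627, Mup18 at chr4:61670177-61674132 and Mup19 at chr4:61778324-61782355. Mup20 is at chr4:62011337-62054143 and Mup3 at chr4:62083476-62087317, both beyond the end of the central array. That array held 15 of the listed genes within 1.72 Mb. The coding sequences of Mup1, Mup9, Mup16, Mup18 and Mup19 differed from each other at 1 to 6 bases, with an identity of 98.9% to 99.82% over 10 pairs. These 5 genes are called near-identical copies below, together with 10 other listed genes of the array. Mup3 differed from the copies at 85 to 91 coding bases, an identity of 83.2% to 84.4%. Mup20 differed from them at 47 to 52 coding bases, an identity of 90.4% to 91.3%, and Mup3 and Mup20 differed from each other at 70 bases.

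**Figure D1:**
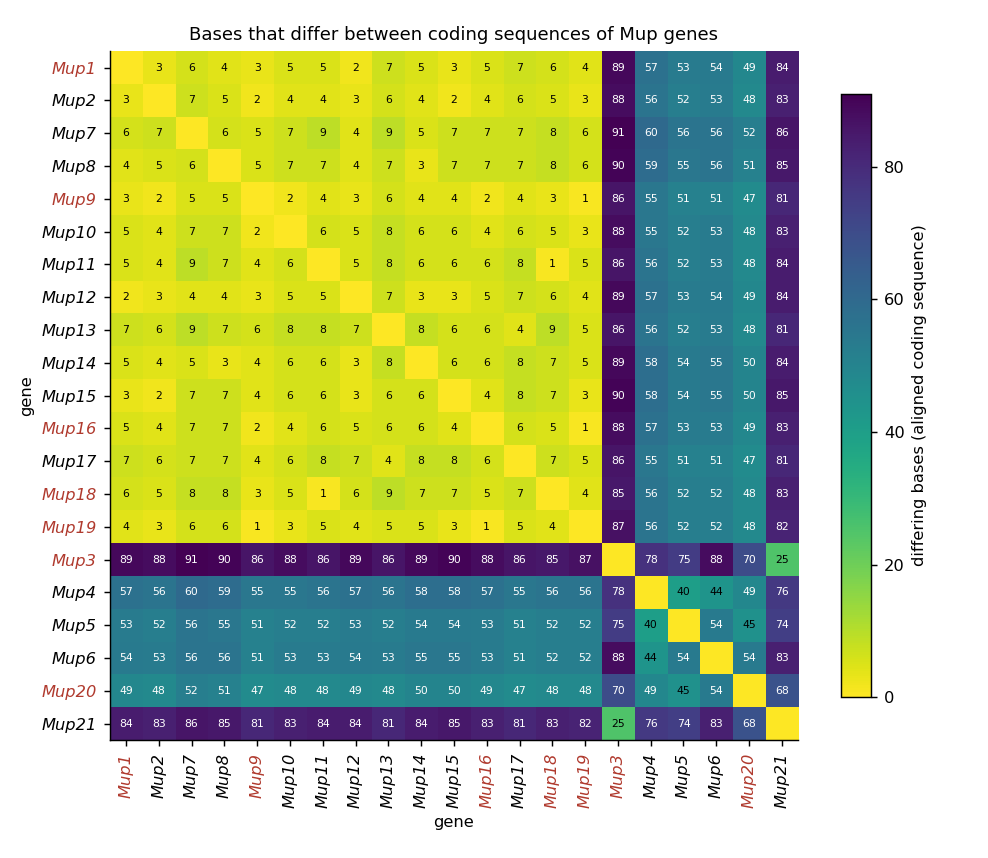
Number of coding bases that differed between each pair of the 21 listed Mup genes, as a colour scale with the number in each cell; both axes list the genes, and the 7 genes described are in red. The block of 15 near-identical copies holds values of 1 to 9, and the row of Mup3 holds 85 to 91 against these copies.

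The sequences below are shown because they hold the few coding differences within 3 pairs of close copies, of which the first 2 pairs changed in opposite directions between the groups. Each is 30 bases of coding sequence from the GENCODE M21 transcripts (GRCm38, minus strand), 5′ to 3′, with capitals on the base that differs within the pair. Mup18 and Mup11 differed at a single coding base in exon 3, written C252G, counted from 1 at the A of the start codon with the base of Mup18 first. The windows are at chr4:61672652-61672681 for Mup18 and chr4:60660928-60660957 for Mup11.
Mup18: gatgaagagtgctcCgaattatctatggtt
Mup11: gatgaagagtgctcGgaattatctatggtt
The 30 bases of Mup18 were found also in 6 other listed Mup genes and those of Mup11 in 7, so that even this position did not set a single gene apart. Mup1 and Mup12 differed at 2 coding bases in exon 1, G25T and C42G. The first of these windows is at chr4:60501810-60501839 for Mup1 and chr4:60741176-60741205 for Mup12.
Mup1: tgctgctgctgtgtGtgggactgaccctag
Mup12: tgctgctgctgtgtTtgggactgaccctag
The window of Mup1 was shared with 1 other listed gene, Mup8, and that of Mup12 with 7. The second windows are at chr4:60501793-60501822 for Mup1 and chr4:60741159-60741188 for Mup12.
Mup1: ggactgaccctagtCtgtgtccatgcagaa
Mup12: ggactgaccctagtGtgtgtccatgcagaa
The second window of Mup1 was found in 11 other listed genes, and that of Mup12 in 1, Mup8. Mup19 and Mup16 also differed at a single coding base, C129T in exon 2, at chr4:61781677-61781706 for Mup19 and chr4:61518939-61518968 for Mup16.
Mup19: actattatcctggcCtctgacaaaagagaa
Mup16: actattatcctggcTtctgacaaaagagaa
The 30 bases of Mup16 occurred in none of the other listed Mup genes. Over whole transcripts, Mup18 and Mup11 differed at 9 of 930 aligned bases, and Mup1 and Mup12 at 3 of 925.

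The near identity limits what the tables can say of a single copy. Of all stretches of 31 bases in the annotated transcripts of Mup19, 100% also occurred in another Mup gene. For Mup1 this share was 98.4%, for Mup16 95.1%, for Mup9 94.6% and for Mup18 93.1%. It was 28.8% for Mup3 and 27.8% for Mup20, although 64.5% of the stretches of Mup20 occurred in some other gene when pseudogenes of the family were counted. RSEM, the program behind the tables, divides reads that fit several genes among them by an estimate, so the values of the 5 copies are more uncertain than those of Mup3, and the summed counts of the copies are given beside them.

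Most of the 7 genes were abundant in these cells. Mup19 was listed at 2728 and 2751 FPKM (fragments per kilobase of transcript and of all mapped fragments scaled to a fixed library size) in the 2 Vehicle libraries, and Mup18 at 2535 and 2639. Mup3 followed at 2061 and 2033 FPKM, Mup20 at 1428 and 1245, and Mup1 at 628 and 549. Mup16 stood far below these at 51.6 and 66.8 FPKM, and Mup9 at 0.56 and 6.22. The 2 libraries of Vehicle thus did not overlap between neighbours in this order, although Mup18 and Mup19 were close. In the PA libraries the ranges of Mup18, 4237 and 4478 FPKM, and Mup19, 4360 and 4307 FPKM, overlapped. Mup9 was estimated from only 7.35 to 391 expected counts per library and varied most between libraries of a group.

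The 5 near-identical copies among the 7 genes were higher in both FFA groups than in Vehicle. Mup1 reached 1719 and 1676 FPKM with PA and 2166 and 2450 with LA. Mup16 reached 114 and 145 FPKM with PA and 158 and 157 with LA. Mup18 was at 5460 and 5308 FPKM in the LA libraries, and Mup19 at 4720 and 4884. Mup9 was at 13.6 and 7.65 FPKM with PA and 17.4 and 9.23 with LA. In all 5 genes the 4 libraries with an FFA alone were above the 2 Vehicle libraries without overlap.

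The divergent genes Mup3 and Mup20 were nearer to Vehicle with PA than with LA, as were Mup1, Mup9, Mup16, Mup18 and Mup19. Mup3 was at 2766 and 2874 FPKM with PA and 3277 and 3027 with LA, above both Vehicle libraries. Mup20 was at 1496 and 1240 FPKM with PA, a range that overlapped Vehicle, and at 2461 and 2083 with LA, above every other library of the series.

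**Figure D2:**
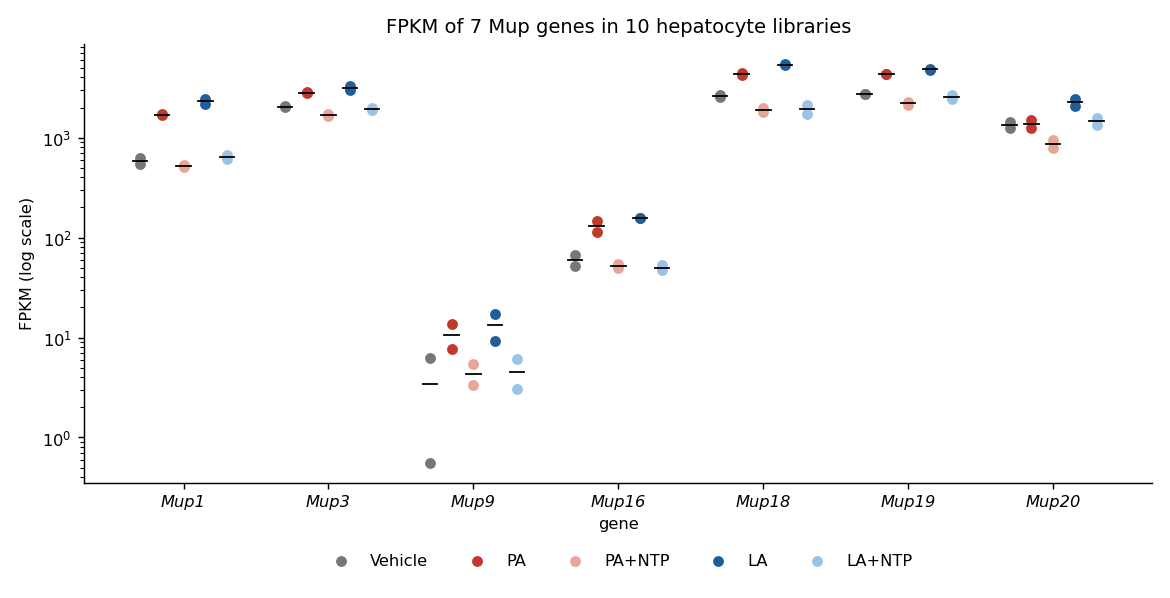
FPKM on a log scale (y axis) of the 7 Mup genes (x axis) in each of the 10 libraries, coloured by group; points are libraries and black lines the group means. For Mup1, Mup3, Mup9, Mup16, Mup18 and Mup19 the PA and LA libraries lie above the other 6, while for Mup20 only the LA libraries do.

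With PA, the log2 fold change against Vehicle in the edgeR fit of all 10 libraries was 1.56 ± 0.0823 (SE, n = 2 per group) for Mup1 and 1.17 ± 0.12 for Mup16. It was 0.79 ± 0.0853 for Mup18 and 0.70 ± 0.0676 for Mup19. It was 1.51 ± 0.598 for Mup9, a value that rests on the Vehicle libraries: it was 0.74 without Vehicle replicate 1, and 4.27 without Vehicle replicate 2. For Mup3 it was 0.50 ± 0.0592, and for Mup20 0.07 ± 0.116. Of the 7 genes 4 were called higher and 0 lower, where called means a Benjamini-Hochberg adjusted p below 0.05 and a fold change of at least 1.5. Mup9, Mup3 and Mup20 were not called, and Mup9 was called without Vehicle replicate 2. Over all 14097 genes tested, 6.00% were called higher and 8.92% lower with PA.

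With LA, the log2 fold change was 2.02 ± 0.0833 for Mup1, 1.92 ± 0.578 for Mup9, 1.45 ± 0.119 for Mup16, 1.10 ± 0.0857 for Mup18 and 0.86 ± 0.0677 for Mup19. It was 0.67 ± 0.0593 for Mup3 and 0.81 ± 0.116 for Mup20. All 7 genes were called higher, beside 3.53% of all genes called higher and 7.11% called lower. The call of Mup9 was lost without Vehicle replicate 1, at 1.15, without LA replicate 1, at 1.39, and in DESeq2, at 2.01, and its value was 4.68 without Vehicle replicate 2. The level of Mup1 was 2.95 times that of Vehicle with PA and 4.05 times with LA in this fit.

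With NTP the 5 copies among the 7 genes were near or below Vehicle. The summed counts of all 15 copies differed from Vehicle by -0.34 ± 0.0662 in PA+NTP and -0.16 ± 0.0661 in LA+NTP on the log2 scale. Mup1 was at 508 and 529 FPKM in PA+NTP, below both Vehicle libraries, and at 676 and 609 in LA+NTP. Mup18 was at 1957 and 1789 FPKM in PA+NTP and 2141 and 1706 in LA+NTP, below both Vehicle libraries in each group. Mup19 was at 2102 and 2295 FPKM in PA+NTP and 2440 and 2691 in LA+NTP, also below both Vehicle libraries. Mup16 was at 49.1 and 54.6 FPKM in PA+NTP and 52.8 and 46.8 in LA+NTP. Mup9 was between 3.03 and 6.06 FPKM in these 4 libraries. For each of these 5 copies the libraries with NTP lay below those with the same FFA alone.

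Mup3 was at 1709 and 1651 FPKM in PA+NTP and at 1999 and 1904 in LA+NTP, below all PA and LA libraries. Mup20 was at 944 and 788 FPKM in PA+NTP, the lowest 2 values of this gene in the series. In LA+NTP it was at 1587 and 1327, below both LA libraries and overlapping Vehicle.

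Against PA alone, the log2 fold change with PA+NTP was -1.77 ± 0.0827 for Mup1, -1.39 ± 0.119 for Mup16, -1.28 ± 0.0861 for Mup18, -1.04 ± 0.068 for Mup19 and -1.28 ± 0.571 for Mup9. It was -0.81 ± 0.0595 for Mup3 and -0.72 ± 0.116 for Mup20. Of the 7 genes 6 were called lower, all but Mup9, beside 5.11% of all genes called lower and 8.74% called higher. Without PA replicate 1 the value of Mup20 was -0.58 and not called. Mup9 was called at -1.28 without Vehicle replicate 1 and at -1.29 without Vehicle replicate 2.

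Against LA alone, the values with LA+NTP were -1.89 ± 0.0827 for Mup1, -1.70 ± 0.118 for Mup16, -1.56 ± 0.529 for Mup9, -1.53 ± 0.0866 for Mup18 and -0.94 ± 0.0678 for Mup19. They were -0.73 ± 0.0593 for Mup3 and -0.68 ± 0.116 for Mup20. All 7 genes were called lower, beside 7.57% of all genes called lower and 11.7% called higher. Without LA replicate 1, Mup20 at -0.56 and Mup9 at -1.03 were not called, nor was Mup20 at -0.57 without LA+NTP replicate 2 or Mup9 at -1.18 without LA+NTP replicate 1. The comparisons of an FFA with Vehicle and of NTP with that FFA share the FFA libraries, so a high value there enters both with opposite sign.

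The groups with NTP were also set against Vehicle, where no FFA-only library enters. In PA+NTP the 7 log2 fold changes ran from -0.65 to 0.22, and Mup20 at -0.65 ± 0.116 was the only gene of the 7 called, beside 1.64% of all genes called lower and 1.21% called higher. This call for Mup20 was lost without Vehicle replicate 1, at -0.55, and without PA+NTP replicate 2, also at -0.55. In LA+NTP the values ran from -0.42 for Mup18 to 0.36 for Mup9 and none of the 7 genes was called, beside 0.0567% of all genes called higher and 0.0355% called lower. Mup18 was called lower there without LA+NTP replicate 1, at -0.59.

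Mup20 was the only gene of the 7 called between the fatty acids, at a log2 fold change of -0.74 ± 0.116 for PA against LA. The other 6 values ran from -0.45 for Mup1 to -0.16 for Mup19. Among all genes, 2.04% were called lower and 1.18% higher in PA than in LA, and the doses of the fatty acids were not matched. The effect of NTP under PA minus that under LA was between -0.09 and 0.31 on the log2 scale for the 7 genes. No gene of the 14097 was called in that difference, although 1029 genes had an unadjusted p below 0.05 in edgeR and DESeq2 called 4.

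The other Mup genes were measured on the same libraries and did not all move with the 7. Mup17 behaved like the chosen copies, with log2 fold changes against Vehicle of 0.76 ± 0.0976 (PA) and 0.85 ± 0.0976 (LA), and of -1.20 ± 0.0983 and -1.09 ± 0.0978 with NTP. Mup2 and Mup14 were called higher with LA, at 0.69 ± 0.0917 and 0.62 ± 0.0732, and lower with NTP under both fatty acids. Mup7, at 2189 and 2155 FPKM in Vehicle, had 0.21 ± 0.0759 with PA and 0.39 ± 0.0759 with LA, and was called lower only with LA+NTP against LA.

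A further set of copies moved the other way. Mup11 was at 1094 and 975 FPKM in Vehicle, at 314 and 302 with PA and at 376 and 278 with LA. With NTP it was at 834 and 976 under PA and at 959 and 1143 under LA. Its log2 fold change was -1.72 ± 0.128 with PA, -1.62 ± 0.127 with LA, 1.5 ± 0.127 when NTP was added to PA and 1.64 ± 0.127 when it was added to LA. Mup12 was at 406 and 298 FPKM in Vehicle, at 176 and 175 with PA and at 132 and 154 with LA. It was at 512 and 556 in PA+NTP and at 593 and 663 in LA+NTP. Mup12 was also called higher in LA+NTP than in Vehicle, at 0.84 ± 0.116. Mup10 was called lower with LA, at -0.71 ± 0.0985, and higher with LA+NTP against LA, at 0.69 ± 0.0984. Thus Mup18 and Mup11, which differ at a single coding base, had opposite signs in all 4 comparisons, as had Mup1 and Mup12.

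Of the 11 other Mup genes tested, 1 was called higher and 2 lower with PA, beside 6.00% and 8.92% of all genes. With LA 3 were higher and 3 lower, beside 3.53% and 7.11% of all genes. With NTP 2 were higher and 3 lower under PA, beside 8.74% and 5.11% of all genes. Under LA 3 were higher and 4 lower with NTP, beside 11.7% and 7.57% of all genes. Mup15 was not called in these comparisons, nor were Mup6, Mup8 and Mup21, which are rare here with at most 9.93 FPKM in any library. Mup4, Mup5 and Mup13 had too few counts for the fit. Mup22, which is in the RefSeq gene table, was listed in none of the libraries.

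**Figure D3:**
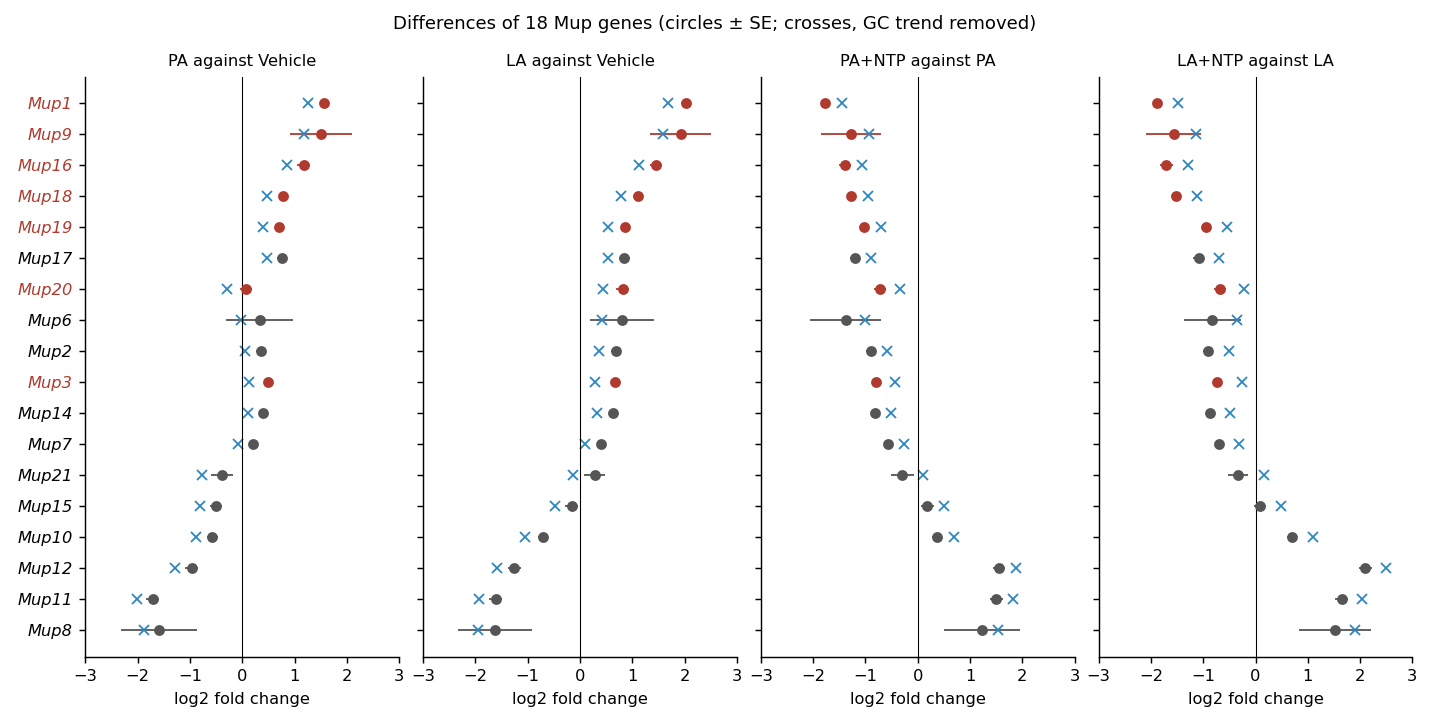
Log2 fold change (x axis) of 18 tested Mup genes (y axis, ordered by the value with LA) in 4 comparisons; circles are the edgeR values with bars of ± SE, red for the 7 genes described, and crosses are the values after the trend with GC content was removed. Mup1 lies at 2.02 and Mup11 at -1.62 with LA, and both lie on the other side of 0 in the comparisons with NTP.

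The FPKM ranges of the 4 libraries with an FFA alone and of the other 6 libraries did not overlap for 6 of the 7 genes, all higher with an FFA alone, Mup20 being the exception. Among the other Mup genes they did not overlap in the same direction for Mup2, Mup7, Mup14 and Mup17, and in the other direction for Mup10, Mup11 and Mup12. Among 11174 genes with a mean FPKM of at least 1, 20.5% were wholly higher and 25.4% wholly lower in these 4 libraries.

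Summed over the family, the differences were smaller than those of the copies that moved most, such as Mup1 and Mup11. All Mup genes together took 1.90% and 1.77% of the expected counts of the Vehicle libraries. Their share was 2.26% and 2.29% with PA and 2.75% and 2.63% with LA. It was 1.42% and 1.5% in PA+NTP and 1.70% and 1.65% in LA+NTP. The Wilson half-width of these shares was at most 0.008 percentage points, which covers counting error only. For the summed counts of the 15 copies the log2 fold change against Vehicle was 0.35 ± 0.0662 (PA) and 0.58 ± 0.0663 (LA). When NTP was added they had -0.68 ± 0.0664 under PA and -0.74 ± 0.0664 under LA. The sum was thus between the values of rising copies such as Mup1 and falling copies such as Mup11, and close to those of Mup3.

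Within the family, the 7 genes took 43.1% and 45.6% of all Mup counts in the Vehicle libraries. They took 56.1% and 55.3% with PA, 57.3% and 58.6% with LA, and 41.2% to 45.3% in the 4 libraries with NTP. Mup1 held 5.67% to 7.22% of the Mup counts in the libraries with an FFA alone and 2.41% to 3.08% in the other 6. Mup18 held 16.3% to 17.5% against 8.97% to 13.0%, and Mup11 0.957% to 1.26% against 5.0% to 6.27%. The shares of Mup3, 10.3% to 11.3% against 9.76% to 10.8%, overlapped, as did those of Mup20, 4.77% to 7.91% against 4.64% to 8.22%. A share is bound to the shares of the other copies, since they add up to 100%.

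**Figure D4:**
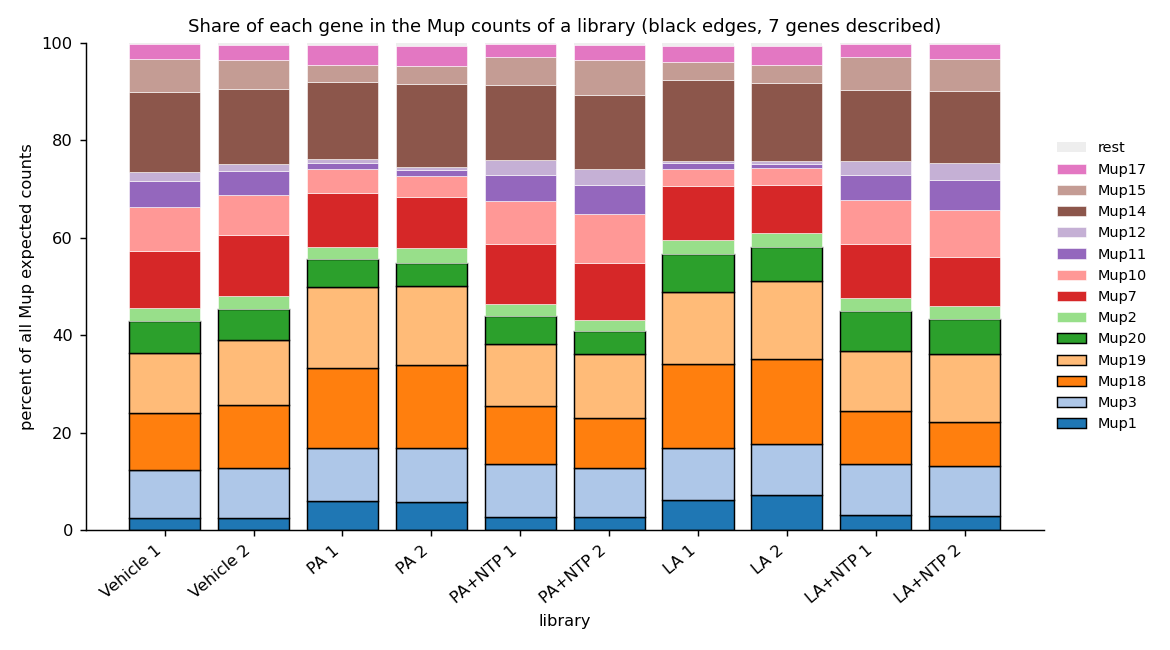
Percent of all Mup expected counts (y axis) held by each gene in each of the 10 libraries (x axis), with black edges around the genes described; Mup16, Mup9 and the rarest genes are in the grey top. In the PA and LA libraries the blocks of Mup1, Mup18 and Mup19 are taller, those of Mup10, Mup11 and Mup12 are smaller, and that of Mup3 keeps to between 9.76% and 11.3%.

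A second property of the libraries moved with the same split of the samples. Over 13977 genes, each gene's deviation from its mean level correlated with its GC content at a Spearman rho of -0.56 to -0.46 in the 4 libraries with an FFA alone and of 0.34 to 0.56 in the other 6. The transcripts of the 7 genes had a GC content of 40.2% to 41.9%. After the trend with GC content was removed, the value of Mup1 with PA was 1.25 and with LA 1.69, that of Mup16 0.86 and 1.12, and that of Mup18 0.48 and 0.78. Mup19 had 0.39 and 0.53 and Mup9 1.19 and 1.58. Mup3 then had 0.13 with PA and 0.28 with LA, and Mup20 had -0.29 and 0.43. For NTP under PA and LA, Mup3 had -0.43 and -0.26, Mup20 -0.35 and -0.22, Mup19 -0.71 and -0.54 and Mup9 -0.94 and -1.14. In this fit 2 of the 7 genes were called higher with PA, Mup1 and Mup16, and 3 with LA, Mup18 being the third. Called lower with NTP were 4 genes under PA (Mup1, Mup16, Mup18 and Mup19) and 3 under LA (Mup1, Mup16 and Mup18). Counted in both directions, this fit called 1242 of all genes with PA and 507 with LA. For NTP it called 896 under PA and 877 under LA. The summed copies had 0.042 with PA and 0.25 with LA, and for NTP -0.36 under PA and -0.32 under LA. Mup17 then had 0.47 with PA and 0.54 with LA, and Mup2 and Mup14 had 0.37 and 0.32 with LA, all not called. With NTP Mup17 stayed called lower under PA and LA, while Mup2, Mup7 and Mup14 were not called. Of the 11 other Mup genes tested, 0 were then called higher with PA or LA, 5 lower with PA and 3 lower with LA. For NTP 3 were higher and 1 lower under each fatty acid. Mup11 and Mup12 lay further from 0 in this fit, at -2.02 and -1.28 with PA. Mup18 and Mup11, and Mup1 and Mup12, kept opposite signs, but the transcripts of these genes all hold 41.9% to 42.0% GC. Removal of the trend shifts genes of like GC content alike, so this fit could hardly change the gap within a pair and does not test it. The part of the GC trend in the differences between groups was not tested, and treatment and trend cannot be told apart in this design.

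Genes of the growth hormone pathway, hormone receptors and some genes of insulin signalling were read from a list of 26 genes, 25 of them tested. This list and those below were chosen with earlier results of these data known, and most genes are named for a large change. Their adjusted p-values come from the edgeR fit of all genes and are no independent evidence for a list. The growth hormone list holds genes that pass signals on and genes that dampen them, so its counts and medians give no direction of a pathway. With PA 0 of these genes were higher and 6 lower, and with LA 0 higher and 4 lower, beside 8.92% and 7.11% of all genes lower. When NTP was added, 3 were higher and 0 lower under PA, and 6 higher and 0 lower under LA, beside 8.74% and 11.7% of all genes higher, and the 3 of 25 under PA were near that background. Without the GC trend the calls of the list numbered 4 with PA, 1 with LA, and 4 and 2 for NTP under PA and LA. Over all genes that fit called 1242, 507, 896 and 877. The median log2 fold change of the list was -0.24, -0.17, 0.21 and 0.25 in these comparisons, beside medians of -0.008 to 0.011 over all genes.

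Cish, a STAT5 target that dampens cytokine receptor signals, fell by 1.15 ± 0.119 with PA (adjusted p = 5.3e-06) and by 0.63 ± 0.112 with LA (adjusted p = 0.000508), both on the log2 scale. It rose with NTP by 1.05 ± 0.117 under PA (adjusted p = 9.3e-06) and by 0.94 ± 0.107 under LA (adjusted p = 6.58e-06). Cish stood at 7.14 ± 0.014 FPKM (SD, n = 2) in Vehicle, 3.15 ± 0.014 with PA and 4.50 ± 0.57 with LA. The value with LA was -0.45 and not called after the GC trend was removed, and -0.49 and not called without LA replicate 1. Onecut1, a liver transcription factor, fell by 1.72 ± 0.326 with PA (adjusted p = 0.000649). Igf1, the growth factor that the liver releases on growth hormone, fell by 0.85 ± 0.0764 with PA (adjusted p = 1.76e-06) and had 0.10 ± 0.0737 with LA. By FPKM Igf1 was lower with LA, at 35.5 ± 1.5 (SD, n = 2) against 43.2 ± 1.3 in Vehicle, so its sign there depended on the measure.

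Stat5b, Ghr and Socs2 were not called with PA or LA. The log2 fold change of Stat5b was -0.26 ± 0.0809 (PA) and -0.10 ± 0.0794 (LA). Ghr, the growth hormone receptor, had -0.20 ± 0.0932 with PA and 0.42 ± 0.0912 with LA. Socs2, another STAT5 target, had -0.16 ± 0.0653 and 0.25 ± 0.0636. Irs2, an adaptor of the insulin receptor, fell by 0.85 ± 0.161 with PA (adjusted p = 0.000665) and rose by 0.93 ± 0.156 with PA+NTP against PA (adjusted p = 0.00026). With PA the value of Irs2 was -0.54 and not called after the GC trend was removed. Thra, a thyroid hormone receptor, fell by 0.79 ± 0.183 with LA (adjusted p = 0.00323), a value of -0.31 and not called without the GC trend, and of -0.59 and not called without Vehicle replicate 1.

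**Figure D5:**
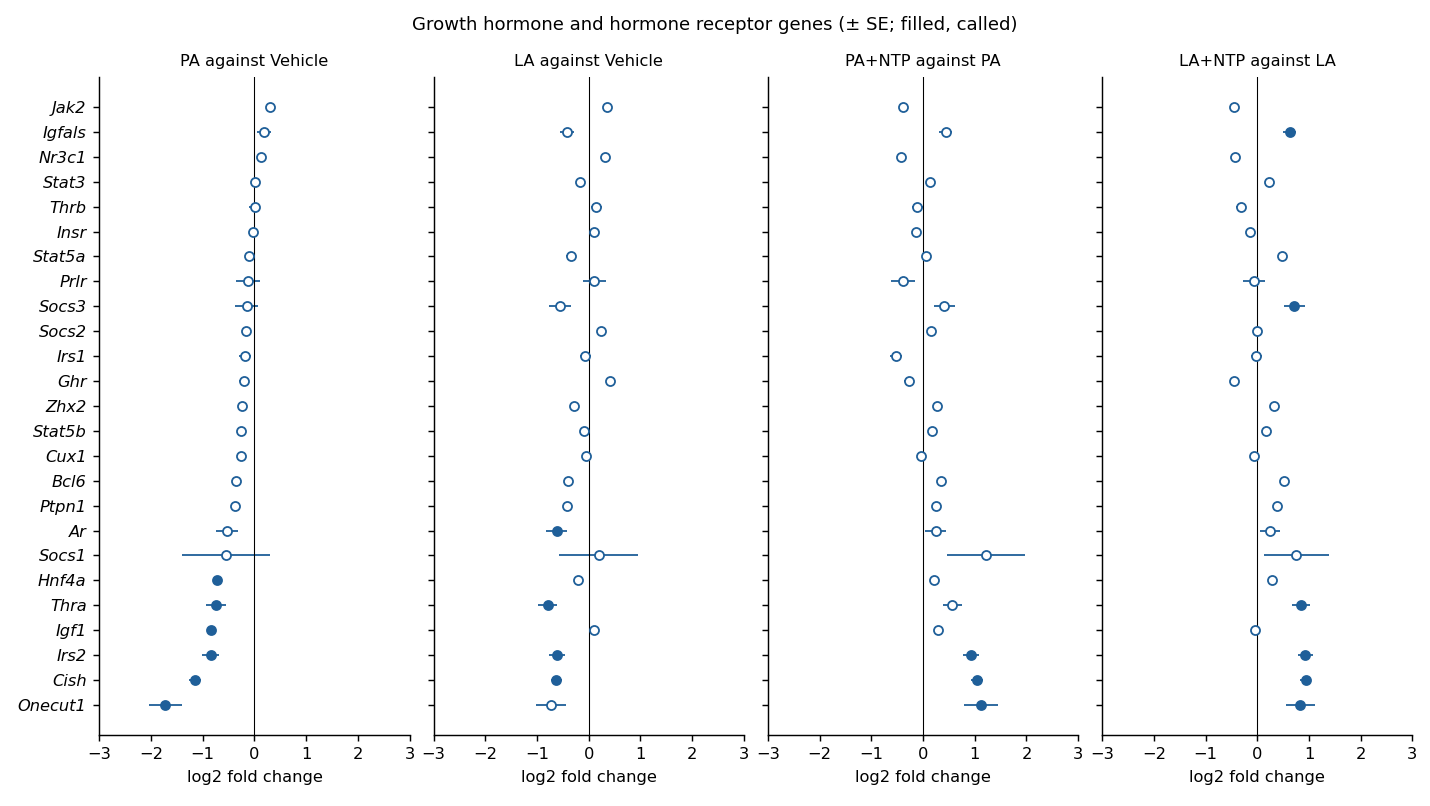
Log2 fold change (x axis) of the 25 tested genes of the growth hormone and hormone receptor list (y axis, ordered by the value with PA) in 4 comparisons; bars are ± SE and filled circles were called. Cish lies at -1.15 with PA and at 1.05 with PA+NTP against PA, and Stat5b and Socs2 are open in all panels.

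Genes known as higher in male than in female liver, as Mup20 and several copies are, were tested from a list of 22, of which 17 had enough counts. With PA 4 were lower and 0 higher, beside 8.92% of all genes lower. With LA 1 was higher and 0 lower, beside 3.53% of all genes higher. The gene called with LA was Ugt2b1, a glucuronosyltransferase, at 0.59 ± 0.202 (adjusted p = 0.0309). This call was lost under several alternatives, for example at 0.54 with library-size scaling and without Vehicle replicate 1, at 0.64 without Vehicle replicate 2 and at 0.48 without LA replicate 1. Selenbp2, a selenium-binding protein, fell by 2.53 ± 0.471 with PA (adjusted p = 0.00058). Cyp4a12a, a fatty acid hydroxylase, fell by 1.06 ± 0.222 (adjusted p = 0.00138), and Cyp2d9, a steroid hydroxylase, by 0.84 ± 0.207 (adjusted p = 0.00427). The call of Cyp2d9 was lost without PA replicate 2, at -0.63. Cyp2a4 was the only gene called with PA among 6 tested genes that are higher in female liver, beside 6.00% of all genes higher and 8.92% lower. Cyp2a4 fell by 2.65 ± 0.676 (adjusted p = 0.00529), and was not called at -1.57 without PA replicate 2. Without the GC trend 4 of these 6 genes were called with PA, counted in both directions together. The number of all genes called in that fit is given below with the other settings.

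Other carriers of small ligands were set beside the Mup genes as members of the same broad protein family. Of 14 tested, none was called with PA, beside 6.00% of all genes higher and 8.92% lower. None was called with LA either, beside 3.53% of all genes higher and 7.11% lower. The list medians were -0.17 with PA and 0.08 with LA. Lcn2, the lipocalin of the acute phase, rose with NTP by 0.82 ± 0.107 under PA (adjusted p = 3.27e-05) and by 0.61 ± 0.108 under LA (adjusted p = 0.00029), while the 7 Mup genes were lower there. Without the GC trend these values were 0.58 and 0.31 and not called.

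Of 22 abundant plasma proteins and other hepatocyte genes tested, 9 were lower and 0 higher with PA, beside 8.92% of all genes lower, and 1 was higher and 0 lower with LA, beside 3.53% of all genes higher. When NTP was added, 1 was higher and 1 lower under PA, beside 8.74% and 5.11% of all genes. Under LA 3 were higher and 1 lower, beside 11.7% and 7.57% of all genes. With so few genes the counts with LA and with NTP were near the shares over all genes. The 9 of 22 genes lower with PA were above theirs. Apoa1, the main protein of high-density lipoprotein, fell by 1.32 ± 0.14 with PA (adjusted p = 6.38e-06). Ahsg, or fetuin-A, fell by 1.13 ± 0.0993 (adjusted p = 1.4e-06), and Ttr, the thyroxine carrier transthyretin, by 0.94 ± 0.158 (adjusted p = 0.000244). Alb, at 2560 ± 46 FPKM in Vehicle, had -0.30 ± 0.0651 with PA and 0.01 ± 0.065 with LA and was not called. Tdo2, a tryptophan-degrading enzyme, had the direction of the Mup genes. It rose by 0.74 ± 0.156 with LA (adjusted p = 0.00168) and fell with NTP by 1.11 ± 0.163 under PA (adjusted p = 8.65e-05) and by 1.00 ± 0.153 under LA (adjusted p = 8.62e-05). Without the GC trend the first and last values were 0.33 and -0.49 and not called.

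Among 11099 other genes averaging 1 FPKM or more, those whose log2 level over the 10 libraries was most like the summed copies were Calm2 (Pearson r = 0.993), Pmpcb (0.986), Ptdss1 (0.985), Paics (0.984) and Gabarapl2 (0.984). For Mup3 they were Syap1 (0.992), Arfip1 (0.991) and Chpt1 (0.991). For Mup20 they were Scp2 (0.989), a sterol carrier protein, Kng2 (0.988), a kininogen, and F9 (0.981), a clotting factor. These values describe 10 libraries that fall into few groups and were picked as the highest of many, so they carry no p.

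Promoters, from 250 bases before to 50 after the start, were at hand from RefSeq (GRCm38.p6) for 14 of the listed Mup genes, among them Mup3, Mup9, Mup18 and Mup19. The letters of the STAT motif, TTCNNNGAA, searched on both strands, were in 0 of these 14, beside 8.3% of 32851 promoters. TGTTCT, half-site letters of the glucocorticoid and androgen receptor, were in 2, Mup3 and Mup21, beside 19.0%. In Mup3 they begin 204 bases before the start, within the promoter window chr4:62087268-62087567, and are shown in capitals because this is the only such match among the 4 described genes whose promoter was at hand.
Mup3: aaacattcacTGTTCTcatgggaata

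Libraries held 13142588 to 60046937 expected counts and 15211 to 16318 listed genes. The summed FPKM of 6 hepatocyte markers was 2260 to 3320 in the libraries with an FFA alone and 2740 to 4110 in the other 6. That of 6 Kupffer cell markers was 2.50 to 3.83 against 4.02 to 5.09, that of 6 endothelial markers 18.2 to 21.3 against 17.7 to 25.4, that of 6 stellate cell markers 15.0 to 17.9 against 15.4 to 17.7, that of 5 cholangiocyte markers 407 to 678 against 569 to 704, and that of 6 lymphocyte markers 0.55 to 0.77 against 0.40 to 0.79. None of 4 neutrophil markers was listed. Their part in the Mup differences was not tested. In such bulk samples, fewer cells of a type and less RNA per cell cannot be told apart.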

How the data were processed

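Total RNA of 10 hepatocyte libraries was sequenced by the authors, who used HISAT and Bowtie2, mm10 and RSEM. The deposited files give expected counts (RSEM's estimated counts) and FPKM per gene and leave out genes below 0.01 FPKM, which were set to 0 here. Gene IDs were matched to RefSeq symbols (17998 of 18055 by ID, 11 by accession). Groups came from the sample titles and the NTP dose from the methods of the study.

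The 7 genes and all lists were chosen with earlier results of these data known. Rounded expected counts of all 10 libraries were fitted with edgeR 4.0.16 (quasi-likelihood test, TMM scaling, filterByExpr), with Benjamini-Hochberg adjustment, and standard errors were derived from the test statistic. With 2 libraries against 2, an exact permutation test cannot go below p = 0.333, so none was run. Coding sequences of GENCODE M21 were aligned with MAFFT 7.526. Of each list, up to 4 called genes with the largest change per comparison were eligible for naming, with Stat5b, Ghr, Igf1, Socs2, Alb and Ttr, and the text gives part of these. Alternatives were other scalings and filters, DESeq2 1.42.0, limma 3.58.1 on log2(FPKM + 1) and log2(FPKM + 0.1), a replicate block, removal of the GC trend (loess, span 0.4), each library left out, and fits of only the groups compared. A further alternative was a NOISeq rule (probability 0.95, fold 1.5), rewritten here for FPKM and not run with the original program.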

Additional observations from a re-analysis of the deposited data

Results flagged for a closer look

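The difference between the effects of PA and LA was tested directly in the comparison of the PA with the LA libraries. Mup20 was lower in PA than in LA by a log2 fold change of -0.74 ± 0.116 and was called in the fit across all genes. Since it was chosen with its values in view, this is a description. Both LA libraries were above both PA libraries.

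Of the genes on the 5 lists, 19 were called, 3 higher and 16 lower in PA, beside 1.18% of all genes higher and 2.04% lower. The genes tested were 25 on the growth hormone list, 17 higher in male liver and 6 higher in female liver. A further 14 were small-ligand carriers and 22 were plasma proteins and hepatocyte genes. The genes of the growth hormone list were Igf1 at -0.95 ± 0.076 (edgeR adjusted p = 5.8e-06), Ghr at -0.61 ± 0.0922 (adjusted p = 0.000743) and Igfals, part of the circulating complex that holds IGF1, at 0.60 ± 0.136 (adjusted p = 0.0122). Of the genes higher in male liver, Selenbp2 differed at -2.34 ± 0.47 (adjusted p = 0.00576), Cyp4a12a at -1.08 ± 0.219 (adjusted p = 0.00595), Cyp2d9 at -0.76 ± 0.205 (adjusted p = 0.0291), Ugt2b1 at -0.74 ± 0.206 (adjusted p = 0.0342) and the complement gene C9 at -0.67 ± 0.167 (adjusted p = 0.0205). Cyp2a4 differed at -2.63 ± 0.668 (adjusted p = 0.0217).

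Of the small-ligand carriers, Lcn2 was higher in PA at 0.86 ± 0.11 (adjusted p = 0.000224) and Fabp5 at 0.60 ± 0.0901 (adjusted p = 0.000743). Among plasma proteins and hepatocyte enzymes, Apoa1 differed at -1.44 ± 0.14 (adjusted p = 3.21e-05), Ahsg at -1.27 ± 0.0996 (adjusted p = 4.81e-06), Ttr at -1.04 ± 0.157 (adjusted p = 0.000743), Apoh at -0.68 ± 0.197 (adjusted p = 0.0402) and Tdo2 at -0.63 ± 0.156 (adjusted p = 0.0194). The antitrypsin genes Serpina1a, Serpina1b and Serpina1c, themselves close copies, differed at -0.74 ± 0.0826, -0.99 ± 0.0649 and -0.88 ± 0.0975 (adjusted p = 8.41e-05, 1.04e-06 and 8.03e-05).

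Some of these calls were lost when 1 library was left out, in part where the value itself hardly moved. Without PA replicate 2, Selenbp2 had -1.55, Cyp2a4 -1.56, Cyp2d9 -0.55, Tdo2 -0.56, Ugt2b1 -0.45, Apoh -0.44, C9 -0.43 and Igfals 0.57, none of them called. Without LA replicate 1, these 8 genes (-2.15, -2.04, -0.66, -0.53, -0.63, -0.44, -0.67 and 0.62), Cyp4a12a (-0.96) and Ghr (-0.58) were not called. Without LA replicate 2, Cyp2d9 (-0.86), Ugt2b1 (-0.84), C9 (-0.67), Igfals (0.56) and Fabp5 (0.57) were not called. Tdo2 (-0.69) and Fabp5 (0.57) were not called without PA replicate 1, nor Ugt2b1 (-0.74) and Apoh (-0.68) without either Vehicle library. With all libraries, Apoh (-0.64), Cyp2d9 (-0.72) and Tdo2 (-0.62) were not called in DESeq2, nor was Igfals (0.55) without the GC trend. The doses of the fatty acids were not the same, and the cause of these differences was not tested.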

How the results depend on the processing

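None of the called values of the 7 Mup genes changed sign under any alternative run. The NOISeq rule, rewritten here for FPKM, called 0 of the 7 genes in each comparison with Vehicle or with the FFA alone. Over all genes with PA and LA it called far fewer than the study reported with NOISeq at the same thresholds. It therefore does not stand for the study's own calls. Mup9 was also called with PA without a filter on low counts, with both limma fits, in the fit of only the 2 groups compared and without any 1 of the PA+NTP or LA+NTP libraries, and with PA+NTP against PA without a filter and in the fit of only the 2 groups compared. With the GC trend removed, the summed copies moved to 0.042 (PA), 0.25 (LA), -0.36 (PA+NTP against PA), -0.32 (LA+NTP against LA) and -0.074 (LA+NTP against Vehicle). With 1 library left out, their values ran from 0.52 to 0.63 with LA, from -0.77 to -0.61 with PA+NTP against PA and from -0.42 to -0.26 with PA+NTP against Vehicle.

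The count of all genes called was 2103 for PA and 1500 for LA, and 1953 and 2718 when NTP was added to them. It was 1242, 507, 896 and 877 without the GC trend, 1238, 880, 1192 and 1675 with limma on log2(FPKM + 1), and 9, 15, 9 and 20 by the NOISeq rule. For PA+NTP against Vehicle it was 402, and 226 with limma on log2(FPKM + 1), 0 by the NOISeq rule and 219 to 484 with 1 library left out. For PA against LA it was 455, and 252 with limma on log2(FPKM + 1), 2 by the NOISeq rule and 241 to 510 with 1 library left out. For LA+NTP against Vehicle it was 13, and 67 without a filter, 7 with a mean FPKM of at least 1, 7 without the GC trend, 8 in DESeq2, 2 and 1 with limma on log2(FPKM + 1) and log2(FPKM + 0.1), 1 by the NOISeq rule and 0 to 27 with 1 library left out. For the difference of the NTP effects it was 0, and 41 without a filter, 4 in DESeq2, 5 and 3 with the same limma fits and 0 to 5 with 1 library left out. The cause of these shifts was not tested.

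Replicate numbers are those of the sample titles, and the deposited files carry other numbers for some libraries. Libraries of the same title number did not deviate together (r from -0.069 to 0.127 over pairs of groups), so the numbers were not taken to pair samples. With a replicate block, LA+NTP against Vehicle had 24 genes called and the difference of the NTP effects 1, and the calls of the 7 Mup genes were the same.

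Counts of single copies rest on RSEM's division of shared reads, which depth does not improve.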
